A study of Arabidopsis thaliana with 18 samples.

Results

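The aquaporins are the membrane channel family of Arabidopsis thaliana that carries water and small neutral solutes. The 35 loci of the family were taken as a complete list, and a gene counted as measured where the deposited array table holds a probe set named by its locus. This gave 27 of 35 genes among 21430 probe sets. All 10 tonoplast intrinsic proteins (TIPs) and all 3 small basic intrinsic proteins (SIPs) were measured, with 9 of 13 plasma membrane intrinsic proteins (PIPs) and 5 of 9 NOD26-like intrinsic proteins (NIPs). PIP2;2, PIP2;3, PIP2;7, PIP2;8, NIP2;1, NIP3;1, NIP4;1 and NIP4;2 were not analysed here. None of the 27 shared its values with another probe set.

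RNA came from whole seedlings of 5 transgenic lines, each with 1 PLETHORA (PLT) transcription factor joined to the hormone-binding domain of the glucocorticoid receptor (GR) and driven by the 35S promoter. PLT factors maintain the stem cells of the root tip. Dexamethasone (dex) releases such a fusion into the nucleus. The PLT1, PLT4, PLT5 and PLT7 lines had 3 libraries each after 6 h in 10 µM dex, and the PLT3 line had 2. The mock group was 4 libraries of the PLT4 line given the solvent DMSO, so that every group carried a 35S-driven PLT-GR fusion. Seedlings were 4 days old when about 50 went into each flask, and treatment followed the next day. The libraries are labelled biological replicates, and p-values measure the spread between libraries of a group. With all arrays, that spread includes the library labelled PLT1 replicate 3, whose PLT transcripts went against its label, as described below. The labels describe 3 mock flasks and list 4 mock libraries. For PLT4 alone, dex and mock groups were of the same line. In the 4 other lines, line and treatment differed together from mock and cannot be told apart, and dex was not given to seedlings that lack a PLT fusion.

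PIPs sit in the plasma membrane and set much of its permeability to water. PIP2 proteins form efficient water channels, while PIP1 proteins reach the membrane by joining PIP2 proteins, as shown in maize. TIPs lie in the vacuole membrane, the tonoplast, and are abundant in cells that enlarge by filling a vacuole. NIPs, named after a soybean nodule protein, pass solutes such as boric acid, and SIPs lie mainly in the endoplasmic reticulum. Levels below are log2 values as deposited, 1 unit being a 2-fold step, and each probe set is compared only with itself. Differences are on the log2 scale, written with the standard error (SE) of 1 limma fit of all 18 arrays. The words called, rose and fell are kept for an adjusted p under 0.05, with the adjustment made over all 21430 probe sets.

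The array medians lay between 5.70 and 5.80. The PLT transcripts checked the labels, and 1 library went against its label. The PLT1 transcript read 11.00 and 11.08 in replicates 1 and 2 of the PLT1 line, against 3.50 to 3.92 in the other 16 libraries, the library labelled PLT1 replicate 3 among them. In that library PLT2 read 10.28, against 3.67 to 6.07 elsewhere. Its actin control read 2.67 higher at the 3′ than at the 5′ end, against 1.08 to 1.64 elsewhere, while its GAPDH control read 1.28 higher, inside the 1.13 to 1.53 of the others. Smaller departures of a library from its group were PLT2 at 6.07 in PLT5 replicate 3 and PLT3 at 6.49 in PLT7 replicate 1. For PLT3, other libraries outside the PLT3 line read 4.08 to 4.79. The PLT4 transcript read 10.67 to 10.82 in PLT4 dex, below the 11.41 to 11.58 of mock. Outside that line it read 4.62 to 7.51, highest in PLT1 replicates 1 and 2. The fit leaves the library labelled PLT1 replicate 3 in the PLT1 group, and it widens the shared spread of many aquaporins. Counts of called aquaporins in each comparison are therefore given with all 18 arrays and without it. In whole seedlings, fewer cells of a type and less RNA per cell cannot be told apart.

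In the PLT4 line, 20 of the 27 aquaporins fell after dex and none rose. Over all probe sets, 16.2% fell and 17.5% rose in that comparison. Without the library labelled PLT1 replicate 3, 20 fell and 0 rose as well, against 19% and 20.5% of all probe sets. With all arrays, an unadjusted p under 0.05 in limma gave 21 members lower and 0 higher. The share of all probe sets at that threshold was not counted. The median log2 difference of the 27 was -0.85, while that of all probe sets was -0.01. Among those 20, 12 fell at least 2-fold, a change that 2.82% of all probe sets made. In 19 of the 27, every PLT4 dex library lay below every mock library, a separation whose share over all probe sets was not counted. By subfamily, 8 of 9 PIPs fell with a median of -1.63, 6 of 10 TIPs with -1.27, 3 of 5 NIPs with -0.56 and all 3 SIPs with -0.34. The difference between subfamilies was not tested, and brightness moved with the calls. Of the 10 members whose mean lay below the median of all probe sets, 5 were called in PLT4, against 15 of the 17 brighter ones. Those 10 dim members were 6 TIPs, 3 NIPs and 1 SIP. That mean covers all 18 arrays, 14 of them dex, so a fall after dex itself lowers it. In every mock library, TIP4;1, NIP1;1 and SIP1;2 of the dim members read above the highest array median, 5.80.

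**Figure D1:**
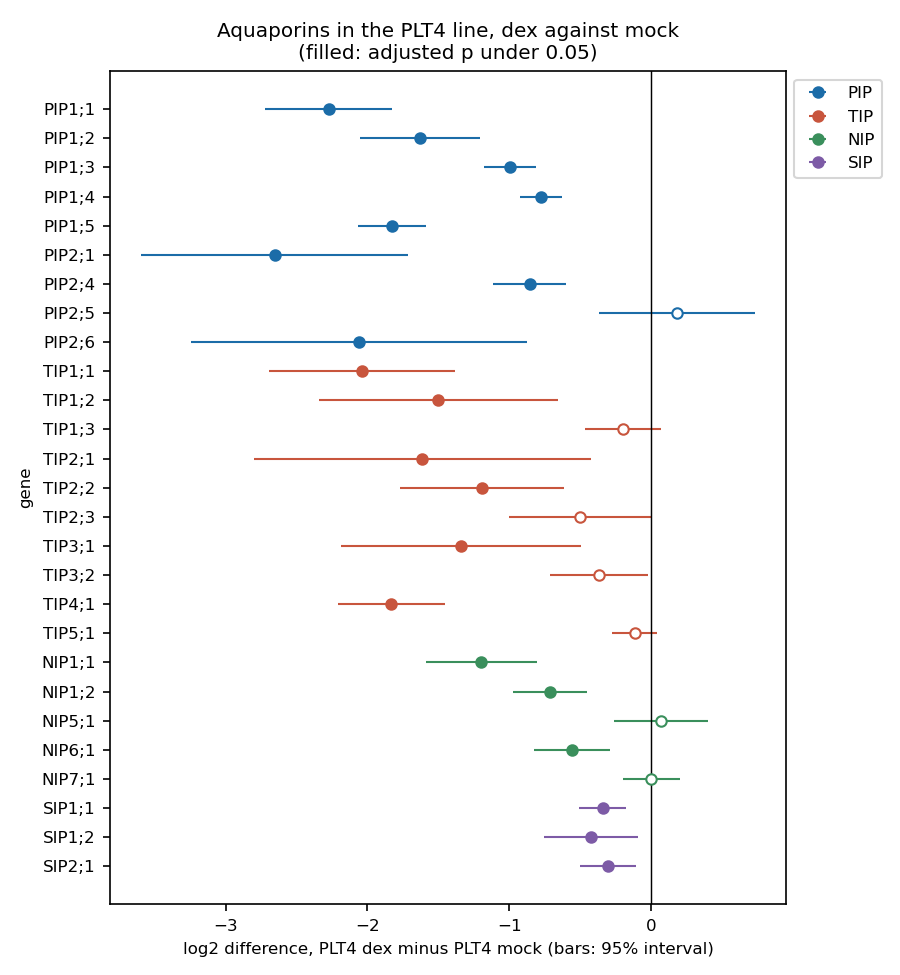
Log2 difference of each measured aquaporin between dex and mock libraries of the PLT4 line, with 95% intervals. Filled points passed an adjusted p of 0.05. The 20 filled points all lie below 0, from PIP2;1 at -2.65 to SIP2;1 at -0.30.

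The same fall was present to different extents in the other 4 lines, each set against the same 4 mock libraries, so the 5 comparisons are not independent. After dex, 18 aquaporins were lower than mock in PLT1 (22.9% of all probe sets were), 14 in PLT3 (12.6%), 10 in PLT5 (11.6%) and 18 in PLT7 (20.6%). A single member, PIP2;5, was higher in PLT1 (25.4% of all probe sets), PLT3 (12.9%) and PLT7 (22.7%). No member was higher in PLT5 (11.3%). There limma also gave 0 members higher and 13 lower at an unadjusted p under 0.05, with the share of all probe sets not counted. Without the library labelled PLT1 replicate 3, 20 were lower and 1 higher in PLT1 (23% and 27.8% of all probe sets), 18 lower and 2 higher in PLT3 (15.7% and 15.9%), 15 lower and 0 higher in PLT5 (15.1% and 14.2%), and 19 lower and 1 higher in PLT7 (22.4% and 25.2%). The median log2 difference of the 27 members was -0.94 in PLT1, -0.74 in PLT3, -0.52 in PLT5 and -0.81 in PLT7, and all probe sets had medians between -0.02 and 0.02.

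Averaged over the 5 lines, 19 aquaporins were lower than mock and 1 was higher, against 22.5% lower and 23% higher over all probe sets. Without the library labelled PLT1 replicate 3, 20 were lower and 1 higher, against 24.2% and 25.9%. Among the 27, 11 were at least 2-fold lower, as were 3.56% of all probe sets. PIPs had a median difference of -1.46 in this average, TIPs -0.98, NIPs -0.60 and SIPs -0.26. In 15 of the 27, every dex library of every line lay below every mock library. The share of all probe sets with that separation was not counted. Library by library, the median distance of the 27 members from their mock means ran from -1.05 in PLT1 replicate 1 to -0.46 in PLT5 replicate 3, against -0.14 to 0.07 in the mock libraries.

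**Figure D2:**
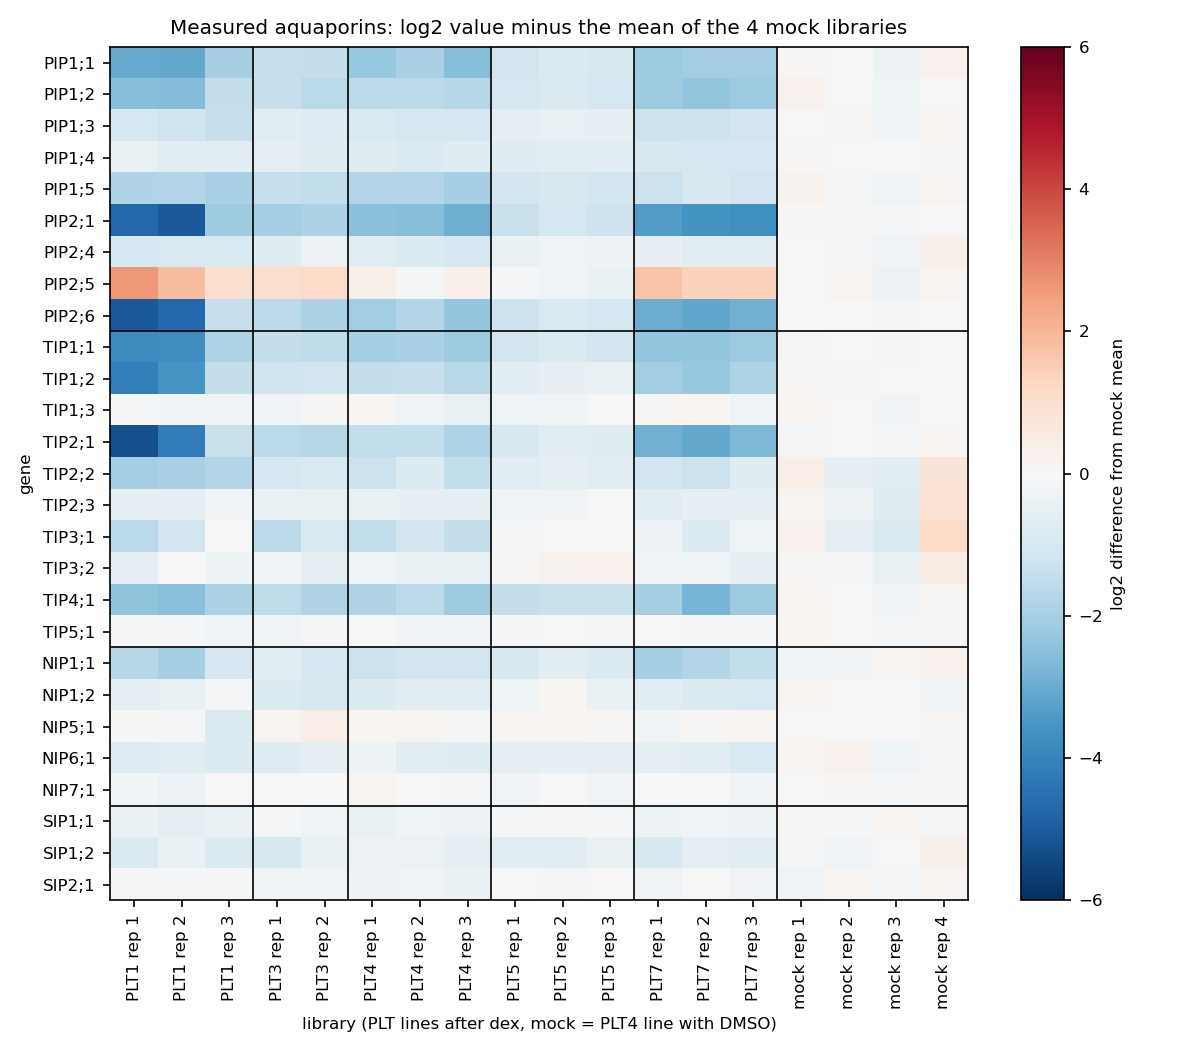
Log2 value of each measured aquaporin in each of the 18 libraries minus the mean of the 4 mock libraries. Rows are genes in subfamily order and columns are libraries, with mock at the right. Most rows are below mock in all 14 dex columns, PIP2;5 is above it in PLT1, PLT3 and PLT7, and the library labelled PLT1 replicate 3 lies nearer to mock than replicates 1 and 2 in rows such as PIP2;6 and TIP2;1.

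Called lower in each of the 5 lines were 10 members, against 7.37% of all probe sets. They were the 5 PIP1 genes, 2 TIPs, 2 NIPs and 1 SIP. Of these, 4 lost the PLT3 call with 1 of the 2 PLT3 libraries left out (adjusted p 0.0532 to 0.208), and 2 of those 4 lost a call in another line without 1 library. With the library labelled PLT1 replicate 3 left out, 15 were, against 9.56%, and the additions were 2 TIPs and the 3 measured PIP2 genes other than PIP2;5. None was called higher in each line, with or without that library, against 8.71% and 10.6% of all probe sets. The 6 members called in no line were 4 TIPs and 2 NIPs. Of these, 3 TIPs were called in no line without that library either.

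All 5 PIP1 genes fell in every line. PIP1;1 (AT3G61430), one of the abundant PIPs of roots and leaves, stood at 8.43, 8.37 and 9.47 in PLT1, 10.06 and 10.03 in PLT3, 9.18, 9.49 and 8.89 in PLT4, 10.33, 10.64 and 10.50 in PLT5, 9.34, 9.39 and 9.38 in PLT7, and 11.51, 11.43, 11.16 and 11.72 in mock. Every dex library was below every mock library. Its difference was -2.27 ± 0.21 in the PLT4 line (a 4.83-fold fall, adjusted p = 6.73e-07) and -1.89 ± 0.16 in the mean of the 5 lines (adjusted p = 6.91e-08). PIP1;2 (AT2G45960) is known for its part in water transport of the rosette and root. It read 9.53, 9.48 and 10.62 in PLT1, 10.67 and 10.43 in PLT3, 10.47, 10.49 and 10.34 in PLT4, 11.04, 11.21 and 11.04 in PLT5, 9.95, 9.71 and 9.87 in PLT7, and 12.32, 12.05, 11.82 and 12.06 in mock. Dex and mock libraries did not overlap either, and the fall was -1.63 ± 0.20 in the PLT4 line (adjusted p = 9.91e-06).

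PIP1;5 (AT4G23400) stood at 8.03, 8.09 and 7.90 in PLT1, 8.48 and 8.36 in PLT3, 8.09, 8.10 and 7.87 in PLT4, 8.76, 8.88 and 8.76 in PLT5, 8.58, 8.87 and 8.69 in PLT7, and 10.06, 9.73, 9.57 and 10.02 in mock. It fell in the PLT4 line by 3.55-fold (-1.83 ± 0.11, adjusted p = 1.33e-08), and the library labelled PLT1 replicate 3 was close to replicates 1 and 2 in it. PIP1;3 (AT1G01620) read 9.49, 9.33 and 9.17 in PLT1, 9.85 and 9.75 in PLT3, 9.63, 9.51 and 9.49 in PLT4, 9.94, 10.07 and 10.05 in PLT5, 9.32, 9.29 and 9.41 in PLT7, and 10.55, 10.59, 10.36 and 10.65 in mock. PIP1;4 (AT4G00430), the PIP1 gene of smallest change in the mean of the lines, read 10.55, 10.32 and 10.36 in PLT1, 10.39 and 10.29 in PLT3, 10.25, 10.15 and 10.26 in PLT4, 10.26, 10.34 and 10.33 in PLT5, 10.05, 9.98 and 9.95 in PLT7, and 11.05, 11.01, 11.01 and 10.91 in mock. In both genes all 14 dex libraries lay below all mock libraries. Their falls in the PLT4 line were -0.99 ± 0.09 (adjusted p = 3.38e-07) and -0.77 ± 0.07 (adjusted p = 4.91e-07).

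The PIP2 genes were split. PIP2;1 (AT3G53420), an abundant water channel of roots and of the veins of leaves, stood at 7.26, 6.94 and 9.86 in PLT1, 9.91 and 10.06 in PLT3, 9.48, 9.41 and 9.06 in PLT4, 10.66, 10.93 and 10.75 in PLT5, 8.61, 8.40 and 8.29 in PLT7, and 12.03, 12.03, 11.89 and 11.95 in mock. All 14 dex libraries lay below mock, lowest in PLT1 replicates 1 and 2 and highest in PLT5. It had the largest fall of the 27 in the PLT4 line, 6.29-fold (-2.65 ± 0.44, adjusted p = 0.000192), and also in the mean of the 5 lines (-2.67 ± 0.33, adjusted p = 4.97e-06). It fell 15.5-fold in PLT1 (-3.95 ± 0.44, and -4.87 ± 0.13 without the library labelled PLT1 replicate 3) and 11.7-fold in PLT7. In PLT3 the call was lost without either PLT3 library (adjusted p = 0.0713 and 0.0517). In PLT5 its difference was -1.19 ± 0.44 (adjusted p = 0.0653, and 4.75e-07 without the library labelled PLT1 replicate 3).

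PIP2;6 (AT2G39010), known from rosette leaves, followed with 6.30, 6.59 and 9.95 in PLT1, 9.76 and 9.44 in PLT3, 9.25, 9.55 and 9.00 in PLT4, 10.10, 10.41 and 10.26 in PLT5, 8.36, 8.18 and 8.46 in PLT7, and 11.37, 11.35, 11.24 and 11.33 in mock. Again no dex library reached the mock range. The fall was -2.06 ± 0.56 in the PLT4 line (adjusted p = 0.00867), -3.71 ± 0.56 in PLT1 (-4.88 ± 0.14 without the library labelled PLT1 replicate 3) and -2.99 ± 0.56 in PLT7. The differences of -1.72 ± 0.63 in PLT3 (adjusted p = 0.0581) and -1.07 ± 0.56 in PLT5 (adjusted p = 0.202) were called in the 17 arrays without the library labelled PLT1 replicate 3 (adjusted p = 5.9e-08 and 4.11e-06). PIP2;4 (AT5G60660), a root PIP, read 5.35, 5.51 and 5.53 in PLT1, 5.72 and 6.06 in PLT3, 5.74, 5.61 and 5.37 in PLT4, 6.01, 6.16 and 6.14 in PLT5, 5.93, 5.73 and 5.78 in PLT7, and 6.45, 6.31, 6.22 and 6.73 in mock. The fall in the PLT4 line was -0.85 ± 0.12 (adjusted p = 4.08e-05), and the PLT5 difference of -0.33 ± 0.12 was not called (adjusted p = 0.0654, and 0.0489 without the library labelled PLT1 replicate 3). Its PLT3 call was lost without PLT3 replicate 1 (adjusted p = 0.18).

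PIP2;5 (AT3G54820) was the exception of the family. In Arabidopsis it is known as a PIP gene whose transcript rises in drought, when most PIP transcripts fall. It stood at 8.73, 7.95 and 7.09 in PLT1, 7.19 and 7.25 in PLT3, 6.47, 6.00 and 6.44 in PLT4, 6.02, 5.93 and 5.70 in PLT5, 7.84, 7.52 and 7.51 in PLT7, and 6.13, 6.28, 5.77 and 6.29 in mock. The PLT1, PLT3 and PLT7 libraries lay above all mock libraries, and those of PLT4 and PLT5 overlapped them. The rise was 3.50-fold in PLT1 (1.81 ± 0.26, adjusted p = 2.29e-05), 2.15-fold in PLT3 (1.10 ± 0.30, adjusted p = 0.0108) and 2.84-fold in PLT7 (1.51 ± 0.26, adjusted p = 0.000164). With 1 of the PLT3 libraries left out, the PLT3 call was lost (adjusted p = 0.0675 or 0.0842).

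In the PLT4 line, where dex and mock seedlings share a genotype, the PIP2;5 difference was 0.19 ± 0.26 (adjusted p = 0.653, 95% interval -0.37 to 0.74). In PLT5 it was -0.23 ± 0.26 (adjusted p = 0.6). The lines differed among themselves, with PLT1 above PLT5 by 2.04 ± 0.28 (adjusted p = 6e-05), PLT1 above PLT4 by 1.62 ± 0.28 (adjusted p = 0.000773) and PLT5 below PLT7 with -1.74 ± 0.28 (adjusted p = 0.000405). Mock libraries of the PLT1, PLT3 and PLT7 lines themselves were not analysed here.

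**Figure D3:**
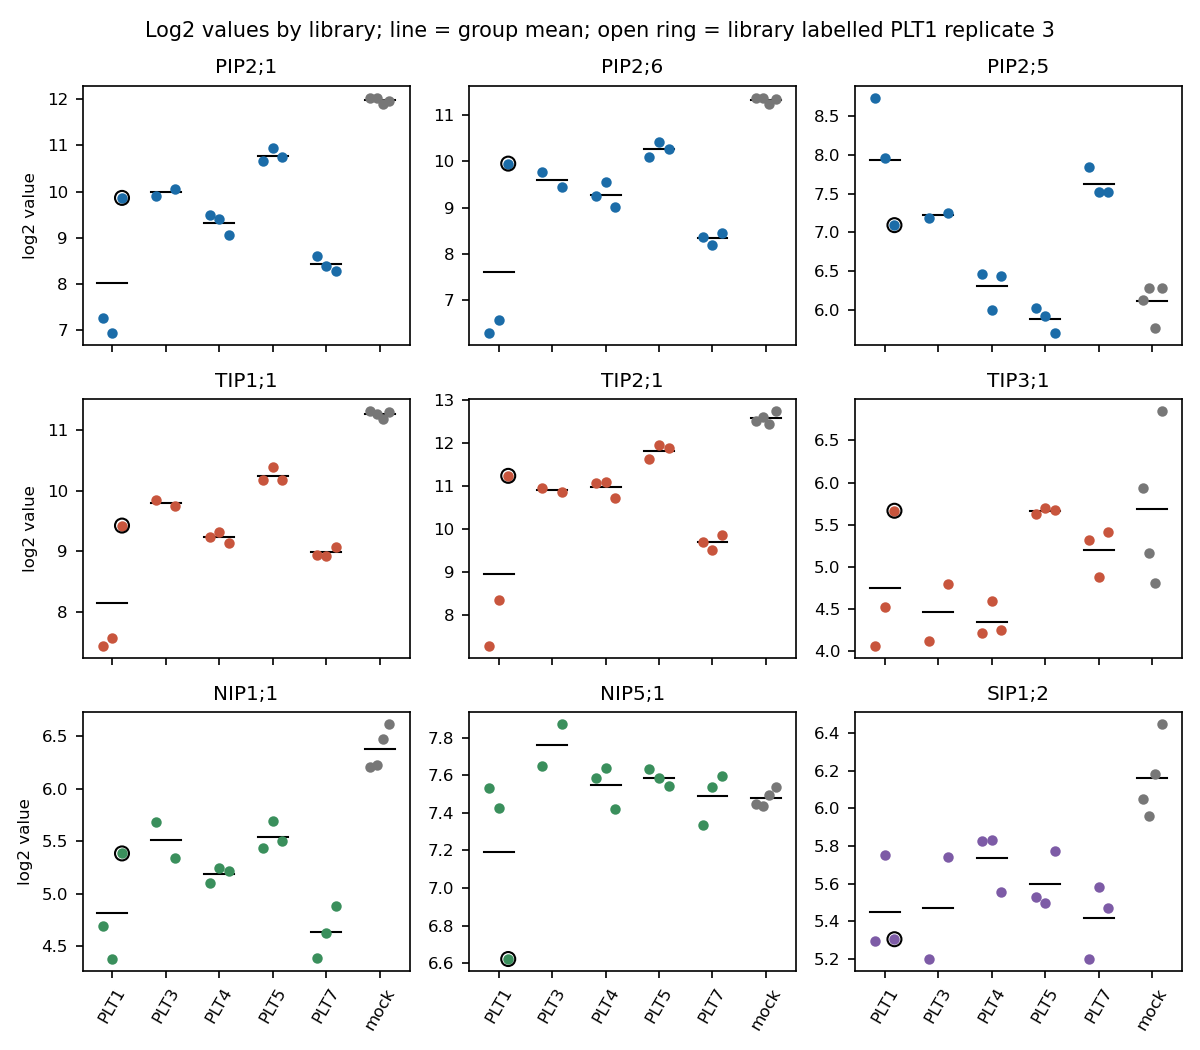
Log2 values of selected aquaporins in every library, by group, with a line at each group mean and a ring on the library labelled PLT1 replicate 3. In PIP2;1 the PLT4 dex libraries lie at 9.06 to 9.48 and mock at 11.89 to 12.03, while in PIP2;5 the PLT4 dex libraries lie at 6.00 to 6.47 and mock at 5.77 to 6.29.

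Of the 10 vacuolar channels, 6 fell in the PLT4 line and the 4 others, all of them dim, were not called in any line with all arrays. TIP1;1 (AT2G36830), also called gamma-TIP and a major tonoplast protein of vegetative organs, stood at 7.43, 7.57 and 9.43 in PLT1, 9.85 and 9.75 in PLT3, 9.23, 9.32 and 9.14 in PLT4, 10.18, 10.39 and 10.18 in PLT5, 8.95, 8.93 and 9.07 in PLT7, and 11.32, 11.27, 11.18 and 11.31 in mock. Every dex library lay below mock, and the gene fell in each line, by 4.11-fold in PLT4 (-2.04 ± 0.31, adjusted p = 7.52e-05), 8.75-fold in PLT1 (-3.13 ± 0.31, and -3.77 ± 0.09 without the library labelled PLT1 replicate 3) and 2.03-fold in PLT5 (-1.02 ± 0.31, adjusted p = 0.0252, and 0.0512 to 0.0839 without mock replicate 1 or PLT5 replicate 1 or 3, with a replicate block, or with a trend and robust variance). Without PLT3 replicate 2 the PLT3 call was lost too (adjusted p = 0.0532). TIP1;2 (AT3G26520), a close relative found in the same organs, stood at 8.86, 9.49 and 11.60 in PLT1, 11.81 and 11.92 in PLT3, 11.60, 11.62 and 11.36 in PLT4, 12.41, 12.55 and 12.56 in PLT5, 10.95, 10.77 and 11.16 in PLT7, and 13.11, 12.95, 12.98 and 13.05 in mock. It fell 2.83-fold in the PLT4 line (-1.50 ± 0.40, adjusted p = 0.00746), and its PLT5 libraries came nearest to mock. The fall in PLT1 was -3.04 ± 0.40, and -3.85 ± 0.14 without the library labelled PLT1 replicate 3.

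TIP2;1 (AT3G16240), or delta-TIP, passes ammonia as well as water. It stood at 7.29, 8.37 and 11.23 in PLT1, 10.96 and 10.87 in PLT3, 11.07, 11.10 and 10.72 in PLT4, 11.63, 11.94 and 11.87 in PLT5, 9.70, 9.51 and 9.87 in PLT7, and 12.51, 12.60, 12.44 and 12.74 in mock. The dex libraries all lay below mock, but the PLT1 libraries spread by an SD of 2.04 (n = 3), the largest of any member and group. The fall in the PLT4 line was -1.61 ± 0.56 (adjusted p = 0.0352, and 1.2e-06 without the library labelled PLT1 replicate 3). That call was lost when any 1 of the 7 PLT4 or mock libraries was left out (adjusted p 0.0523 to 0.113). With a trend and robust variance it was lost too (0.0736). The fall was -2.88 ± 0.56 in PLT7 (adjusted p = 0.000482). TIP2;2 (AT4G17340), a root TIP, read 6.56, 6.67 and 6.83 in PLT1, 7.57 and 7.70 in PLT3, 7.31, 7.81 and 7.12 in PLT4, 7.95, 8.08 and 7.99 in PLT5, 7.46, 7.31 and 7.90 in PLT7, and 9.00, 8.13, 7.91 and 9.39 in mock. Its mock libraries spread over more than 1 unit, PLT5 overlapped them, and the fall was -1.19 ± 0.27 in the PLT4 line (adjusted p = 0.00265). In PLT3 the call (adjusted p = 0.0291) was lost without either PLT3 library or mock replicate 1 or 4 (0.0625 to 0.169). It was also lost with a replicate block (0.0843) and in a fit of the compared groups alone (0.0893).

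TIP4;1 (AT2G25810), a TIP of roots, changed in every line. It counted as dim by its mean over all arrays, but its mock values were above the array medians. It stood at 4.81, 4.71 and 5.31 in PLT1, 5.68 and 5.42 in PLT3, 5.42, 5.66 and 5.09 in PLT4, 5.81, 5.88 and 5.88 in PLT5, 5.24, 4.45 and 5.07 in PLT7, and 7.33, 7.20, 7.07 and 7.29 in mock. No dex library was within 1 unit of the mock range, and the fall of 3.56-fold in the PLT4 line (-1.83 ± 0.18, adjusted p = 9.96e-07) was accompanied by one of -1.89 ± 0.13 in the mean of the 5 lines (adjusted p = 1.23e-08). In dim probe sets the array values are compressed, so such folds can understate the change.

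The TIP3 proteins line the storage vacuoles of seeds. TIP3;1 (AT1G73190) stood at 4.06, 4.53 and 5.67 in PLT1, 4.13 and 4.80 in PLT3, 4.21, 4.60 and 4.25 in PLT4, 5.63, 5.70 and 5.67 in PLT5, 5.32, 4.88 and 5.41 in PLT7, and 5.94, 5.17, 4.81 and 6.85 in mock. The 4 mock libraries themselves spread over more than 2 units, and PLT1, PLT5 and PLT7 overlapped them. It fell in the PLT4 line (-1.34 ± 0.40, adjusted p = 0.0152, and 0.0542 or 0.0534 without PLT4 replicate 1 or 3). The mean of the 5 lines gave -0.80 ± 0.30 (adjusted p = 0.036, and 0.0504 to 0.238 without mock replicate 1 or 4, PLT3 replicate 1, PLT4 replicate 1 or PLT7 replicate 2). With a trend and robust variance that call was lost too (adjusted p = 0.0627). The mean log2 level of a list of 9 seed genes was 4.23, 4.31 and 4.11 in the PLT4 dex libraries and 5.58, 4.98, 4.41 and 5.69 in mock replicates 1 to 4. Of these 9, 4 were called lower in the PLT4 line and 0 higher (16.2% and 17.5% of all probe sets). In PLT5, 0 were called lower and 0 higher (11.6% and 11.3%). The part of these genes in that result was not tested.

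TIP3;2 (AT1G17810) differed by -0.37 ± 0.16 in the PLT4 line (adjusted p = 0.102) and TIP2;3 (AT5G47450) by -0.50 ± 0.24 (adjusted p = 0.122), and neither was called in any line with all arrays. The pollen channels TIP1;3 (AT4G01470) and TIP5;1 (AT3G47440) both had means below the median of all probe sets, with TIP1;3 between 4.81 and 5.42 and TIP5;1 between 3.87 and 4.22 over all libraries. Their differences in the PLT4 line had 95% intervals of -0.47 to 0.07 and -0.27 to 0.04. The missing calls do not show that the genes were equal.

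The NIPs also divided by gene. NIP1;1 (AT4G19030), a root channel that lets arsenite into the plant, stood at 4.69, 4.38 and 5.38 in PLT1, 5.68 and 5.34 in PLT3, 5.10, 5.24 and 5.21 in PLT4, 5.43, 5.69 and 5.50 in PLT5, 4.39, 4.63 and 4.89 in PLT7, and 6.20, 6.23, 6.48 and 6.62 in mock. Dex and mock libraries did not overlap in any line. It fell by 2.29-fold in the PLT4 line (-1.20 ± 0.19, adjusted p = 9.51e-05) and by 3.36-fold in PLT7 (-1.75 ± 0.19, adjusted p = 1.21e-06). The PLT3 call was lost without PLT3 replicate 2 (adjusted p = 0.102). NIP1;2 (AT4G18910), linked to aluminium tolerance, read 6.17, 6.26 and 6.60 in PLT1, 5.84 and 5.73 in PLT3, 5.90, 6.09 and 6.01 in PLT4, 6.45, 6.81 and 6.33 in PLT5, 6.02, 5.89 and 5.77 in PLT7, and 6.88, 6.68, 6.75 and 6.52 in mock. It fell in the PLT4 line (-0.71 ± 0.12, adjusted p = 0.000262), but PLT1 and PLT5 overlapped mock and the PLT5 difference of -0.18 ± 0.12 was not called (adjusted p = 0.355). In PLT1 the call (adjusted p = 0.0221) was lost without PLT1 replicate 1 or 2 or mock replicate 1 (0.066 to 0.114). A fit of the compared groups alone lost it as well (0.0645).

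The boric acid channels went separate ways. NIP5;1 (AT4G10380), through which roots take up boric acid, read 7.53, 7.43 and 6.62 in PLT1, 7.65 and 7.87 in PLT3, 7.59, 7.64 and 7.42 in PLT4, 7.63, 7.58 and 7.54 in PLT5, 7.33, 7.54 and 7.60 in PLT7, and 7.45, 7.43, 7.50 and 7.54 in mock. PLT4 dex and mock libraries overlapped, and the difference was 0.07 ± 0.16 (adjusted p = 0.789, 95% interval -0.26 to 0.40). It was called in no line with all arrays, and higher in PLT3 (0.28 ± 0.09, adjusted p = 0.0256) without the library labelled PLT1 replicate 3, which itself had the lowest NIP5;1 value of all, 6.62. NIP6;1 (AT1G80760), which hands boric acid to growing shoot tissue, read 4.03, 4.12 and 4.01 in PLT1, 4.05 and 4.28 in PLT3, 4.53, 4.16 and 4.09 in PLT4, 4.23, 4.34 and 4.21 in PLT5, 4.23, 4.13 and 3.92 in PLT7, and 4.95, 5.07, 4.54 and 4.71 in mock. All dex libraries lay below all mock libraries, by a small margin against PLT4 replicate 1. It fell in each line, though in PLT3 not without PLT3 replicate 1 (adjusted p = 0.066), and its difference in the mean of the 5 lines was -0.65 ± 0.09 (adjusted p = 2.59e-05). NIP7;1 (AT3G06100), an anther channel, stayed within 5.28 to 5.79 over all libraries and differed by 0.00 ± 0.09 in the PLT4 line (adjusted p = 0.982).

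In the PLT4 line the SIPs had the smallest median change of the 4 subfamilies, while in PLT1 the NIPs did (-0.36, against -0.46 for the SIPs). SIP1;1 (AT3G04090) read 9.04, 8.85 and 9.04 in PLT1, 9.37 and 9.20 in PLT3, 8.98, 9.18 and 9.12 in PLT4, 9.31, 9.30 and 9.37 in PLT5, 9.14, 9.23 and 9.13 in PLT7, and 9.49, 9.35, 9.53 and 9.35 in mock. SIP1;2 (AT5G18290) read 5.29, 5.75 and 5.30 in PLT1, 5.20 and 5.74 in PLT3, 5.83, 5.83 and 5.56 in PLT4, 5.53, 5.50 and 5.77 in PLT5, 5.20, 5.58 and 5.47 in PLT7, and 6.05, 5.96, 6.18 and 6.45 in mock. The third gene of the group, SIP2;1 (AT3G56950), read 7.98, 8.04 and 7.99 in PLT1, 7.87 and 7.91 in PLT3, 7.80, 7.88 and 7.70 in PLT4, 8.11, 7.96 and 8.09 in PLT5, 7.89, 8.10 and 7.87 in PLT7, and 7.86, 8.21, 8.04 and 8.28 in mock, and there alone the PLT4 dex and mock libraries overlapped. In the PLT4 line all 3 fell, with differences of -0.34 ± 0.08 for the first (adjusted p = 0.00264), -0.42 ± 0.16 for the second (adjusted p = 0.0454) and -0.30 ± 0.09 for the third (adjusted p = 0.019). None reached a 2-fold change in any line. The SIP1;2 call in PLT4 was lost without any 1 of the 3 PLT4 libraries, mock replicate 1, 3 or 4, PLT5 replicate 1 or 2, or PLT7 replicate 3, and with array weights or median centring (adjusted p 0.0516 to 0.195). That of SIP2;1 was lost without mock replicate 2 or 4 or PLT4 replicate 3 (adjusted p 0.0563 to 0.0927), and in a fit of the compared groups alone (0.0559). SIP1;2 was lower in each of the 5 lines, from -0.74 ± 0.16 in PLT7 to -0.42 ± 0.16 in PLT4. Its PLT3 call was lost without PLT3 replicate 1 (adjusted p = 0.208) and its PLT5 call without PLT5 replicate 1 or 2 (0.0643 and 0.0633).

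The lines differed in how far their aquaporins lay below mock. An F test among the 5 dex groups, which does not use the mock libraries' means, called 17 of the 27, against 27.1% of all probe sets, and 18 against 36.7% in the 17 arrays that omit the library labelled PLT1 replicate 3. Of the 17 members, 15 were highest in PLT5, and 11 were lowest in PLT1 and 4 in PLT7. The 2 that were highest in PLT1 were PIP1;4 and PIP2;5. Over all probe sets too, PLT5 had the fewest calls against mock (4904), and PLT1 (10361) and PLT7 (9265) had the most. The highest and lowest line were not counted for the other probe sets that the F test called. The F test gave adjusted p = 0.000109 for PIP1;3, 0.000138 for PIP2;5, 0.000146 for PIP1;5 and 0.00203 for PIP2;1. NIP6;1 was not called (adjusted p = 0.611).

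**Figure D4:**
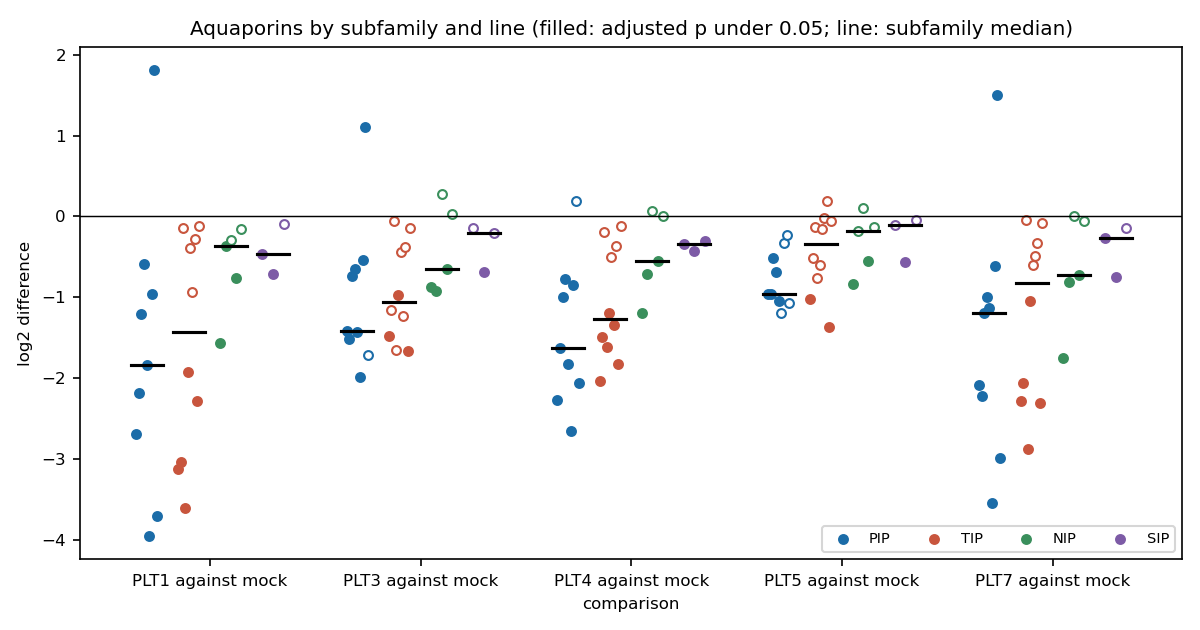
Log2 difference from mock of each measured aquaporin in each line, coloured by subfamily, with a line at the subfamily median and filled points where the adjusted p was under 0.05. The PIP medians run from -1.84 in PLT1 to -0.96 in PLT5, and PIP2;5 is the high point in PLT1, PLT3 and PLT7.

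Pairs of lines were compared at the same dose and time, with p-values adjusted over all probe sets within each of the 10 pairs. PLT5 was higher than PLT7 in 12 aquaporins (8.82% of all probe sets were) and lower in 1, PIP2;5 (8.59%). PIP2;1 was the largest of these, with 10.78 ± 0.14 (SD, n = 3) in PLT5 and 8.43 ± 0.17 (SD, n = 3) in PLT7, a difference of 2.35 ± 0.48 (adjusted p = 0.00243). The gamma-TIP gene differed by 1.27 ± 0.33 (adjusted p = 0.0133), delta-TIP by 2.12 ± 0.60 (adjusted p = 0.0217) and NIP1;1 by 0.91 ± 0.20 (adjusted p = 0.00422), in each with no overlap between the 3 PLT5 and 3 PLT7 libraries. PLT1 was lower than PLT5 in 14 aquaporins (12.2% of all probe sets) and higher in 1, again PIP2;5 (12.8%). Without the library labelled PLT1 replicate 3, PLT5 was higher than PLT7 in 13 aquaporins and lower in 1 (2486 and 2613 of 21430 probe sets). PLT1 was then lower than PLT5 in 15 and higher in 1 (3171 and 4065 of 21430 probe sets).

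With all 18 arrays the other 8 pairs had fewer calls, and these depended on the library labelled PLT1 replicate 3. With it, PLT1 differed from PLT3 in 9 members (14.8% of all probe sets), from PLT4 in 4 (15.4%) and from PLT7 in 3 (8.3%). PLT3 differed from PLT5 in 1 (0.383%) and from PLT7 in 3 (9.9%), and PLT4 from PLT5 in 5 (2.12%) and from PLT7 in 2 (11.5%). PLT3 and PLT4 differed in 0 by limma (0.775% of all probe sets). An unadjusted p under 0.05 gave 5 members higher and 0 lower in PLT3, with the share of all probe sets not counted. Without it, the counts were 15 for PLT1 against PLT3 (23.9% of all probe sets), 10 for PLT1 against PLT4 (24.6%) and 9 for PLT1 against PLT7 (16.2%). They were 4 for PLT3 against PLT4 (3.58%), 8 for PLT3 against PLT5 (2.07%), 11 for PLT3 against PLT7 (16.1%), 12 for PLT4 against PLT5 (7.19%) and 10 for PLT4 against PLT7 (18.2%).

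The library labelled PLT1 replicate 3 departed from its group in some aquaporins and not in others. It lay at least 1 unit above the mean of PLT1 replicates 1 and 2 in 8 members and at least 1 unit below in 1. The share of all probe sets with such a gap was not counted. Over all probe sets this library correlated with replicates 1 and 2 at 0.967 and 0.969, while those 2 correlated with each other at 0.994. The gap was 3.50 in PIP2;6, 3.40 in delta-TIP, 2.76 in PIP2;1 and 1.93 in gamma-TIP, and -1.25 in PIP2;5, whereas replicates 1 and 2 differed from each other by at most 1.08 in any member. With these 2 libraries alone, the difference from mock was -4.87 ± 0.13 for PIP2;1 (adjusted p = 6.62e-15), -4.74 ± 0.20 for delta-TIP and 2.23 ± 0.19 for PIP2;5 (adjusted p = 2.32e-08).

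Proton pumps energise the membranes in which PIPs and TIPs sit. In the mean of the 5 lines, to which the lists below also refer, 22.5% of all probe sets were lower than mock and 23% higher. Of 11 plasma membrane pump genes, 5 were lower and 0 higher, with a median of -0.08. AHA3 fell by 1.03, AHA11 by 0.57 and AHA2 by 0.55 on the log2 scale. Of 14 measured tonoplast pump genes of 19 listed, 12 were lower and 0 higher (22.5% and 23% of all probe sets) with a median of -0.20, and VHA-E3, a subunit of the vacuolar proton ATPase, differed by -0.99 ± 0.12. The medians of the PIPs and TIPs in the same average were -1.46 and -0.98. The difference between these lists was not tested.

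Borate exporters work beside the boric acid channels. Of 6 measured genes of 7, BOR2 fell (-1.09 ± 0.12, adjusted p = 8.87e-07) and BOR1, which loads boron into the xylem, rose (0.68 ± 0.14, adjusted p = 0.000822). These counts, 1 of 6 each way, were no larger a share than that of all probe sets (22.5% lower, 23% higher). Of 9 regulators of PIP traffic and phosphorylation, 3 fell, a share near that 22.5%, among them SYP121, a plasma membrane SNARE that delivers PIPs (-0.63 ± 0.07, adjusted p = 2.12e-06), and TSPO, which binds PIP2;7 and directs it to breakdown (-0.62 ± 0.24, adjusted p = 0.0439). Of 17 measured genes of 20 that respond to abscisic acid and osmotic stress, 12 fell and 1 rose (22.5% and 23% of all probe sets) with a median of -0.58. RD22 (-1.17 ± 0.09) and RAB18 (-1.13 ± 0.31) fell, and ABI1, a phosphatase that holds abscisic acid signalling down, rose (1.43 ± 0.11).

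Most markers of endodermis, xylem and root hairs moved in the same direction. All 9 endodermis genes fell in the mean of the 5 lines, as did 22.5% of all probe sets, with a median of -1.14, led by CASP1 (-2.34 ± 0.21), PER64 (-2.30 ± 0.20) and ESB1 (-1.76 ± 0.16), which build the Casparian strip. Their mean log2 level was 4.61 to 5.03 in PLT4 dex libraries and 4.16 to 5.23 over all dex libraries, against 5.80 to 6.19 in mock. Of 9 xylem genes, 7 fell, again beside 22.5% of all probe sets, with a median of -0.81, led by CESA4 (-1.21 ± 0.15), and their mean level was 4.54 to 5.50 in dex and 5.75 to 5.87 in mock libraries. Of 7 root hair genes, 6 fell on the same background, with a median of -0.48, led by PRP3 (-1.30 ± 0.12), with a mean level of 3.98 to 4.59 in dex and 4.79 to 4.94 in mock libraries.

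Of 6 measured green leaf genes of 7, 5 fell (22.5% of all probe sets did) with a median of -0.27, and their mean level was 12.46 to 12.85 in dex and 12.99 to 13.05 in mock libraries, so the green tissue of whole seedlings was present in all. Of 9 seed genes, 3 fell, a share near those 22.5%, led by CRA1 (-1.44 ± 0.39), and 2 measured pollen genes of 5 were not called and had a mean level of 3.97 to 4.52 in dex and 3.98 to 4.21 in mock libraries. Of 8 measured clock genes of 10, CCA1 fell (-1.72 ± 0.26, adjusted p = 3.93e-05) while GRP7 (1.25 ± 0.13) and PRR5 (1.13 ± 0.25) were among 3 that rose (23% of all probe sets did), and some PIP transcripts are known to follow the time of day. The part of these cell types and of the clock in the aquaporin changes was not tested.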

How the data were processed

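RNA of whole seedlings of 5 lines was hybridised to 18 arrays of 1 colour, grouped here by their titles. The authors deposited log2 values, 1 column per array, and per the submitters' processing notes the tools were RMA and limma 3.24.15, whose roles are not stated. RMA pulls differences near background together and takes out shifts common to most genes. There are no detection calls, no build is named, and of 21494 rows the 64 controls were used only for RNA quality.

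A single limma 3.58.1 model (R 4.3.3) with a coefficient for every group was fitted to all 21430 probe sets named by locus. Moderated tests were two-sided, and p-values were Benjamini-Hochberg adjusted across the probe sets of a comparison, at 0.05. Lines were compared with mock singly and as an equally weighted mean, among themselves by an F test, and in 10 pairs. Members, context and marker lists, and tests were chosen with earlier results of these data known. Every measured aquaporin is described. Those called in the mean of the lines, in PLT4 or in the F test are given by sample, and of each list up to 3 called genes of largest change in the mean of the lines are named. RefSeq's gene table matched 21231 of the probe sets by locus. Family names are used here, and for some genes RefSeq's main symbol is another, such as PIP1A for PIP1;1 and BBM for PLT4. Alternatives left out each library in turn or 3 libraries at once, added a replicate block or array weights, changed the variance model, normalisation, probe sets, samples or adjustment, or asked for a 2-fold minimum.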

Additional observations from a re-analysis of the deposited data

How the results depend on the processing

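No log2 difference of an aquaporin that was called changed sign under any alternative run. Leaving out 1 library at a time gave 18 to 22 called aquaporins in PLT1 against mock, 9 to 20 in PLT3, 16 to 20 in PLT4, 8 to 15 in PLT5, 19 to 21 in PLT7, 19 to 22 in the mean of the 5 lines and 14 to 19 in the F test. Between lines the ranges were 1 to 15 for PLT1 against PLT3, 1 to 10 for PLT1 against PLT4, 14 to 16 for PLT1 against PLT5, 2 to 9 for PLT1 against PLT7, 0 to 4 for PLT3 against PLT4, 0 to 8 for PLT3 against PLT5, 0 to 11 for PLT3 against PLT7, 1 to 12 for PLT4 against PLT5, 2 to 10 for PLT4 against PLT7 and 9 to 14 for PLT5 against PLT7. With 1 PLT3 library left, that library is assumed to vary like the other groups.

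Without the libraries labelled PLT1 replicate 3, PLT5 replicate 3 and PLT7 replicate 1, each with a raised reading of another PLT transcript, PLT1 differed from PLT4 in 10 and from PLT7 in 9 aquaporins, PLT3 from PLT4 in 4, from PLT5 in 4 and from PLT7 in 11, and PLT4 from PLT5 in 9 and from PLT7 in 8. With array weights the count was 15 for PLT1 against PLT3, 10 for PLT1 against PLT4, 9 for PLT1 against PLT7, 4 for PLT3 against PLT4, 5 for PLT3 against PLT5, 11 for PLT3 against PLT7, 14 for PLT4 against PLT5 and 12 for PLT4 against PLT7. With a trend and robust variance, it was 1 for PLT1 against PLT4 and 3 for PLT4 against PLT5. Fits of the compared groups alone gave 1 for PLT1 against PLT3, 0 for PLT1 against PLT4, 1 for PLT1 against PLT7, 4 for PLT3 against PLT4, 12 for PLT3 against PLT5, 13 for PLT3 against PLT7, 17 for PLT4 against PLT5 and 11 for PLT4 against PLT7.

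With a 2-fold minimum, 7 aquaporins were called in PLT3 against mock, where 336 of all 21430 probe sets were higher and 540 lower. In PLT4 there were 12 (518 and 605 of all probe sets), in PLT5 3 (221 and 221) and in the mean of the 5 lines 11 (465 and 762). Between lines, all probe sets higher and lower being in brackets, the minimum left 4 for PLT1 against PLT3 (296 and 420). It left 9 for PLT1 against PLT5 (371 and 628) and 0 for PLT1 against PLT7 (117 and 95). For PLT3 it left 0 against PLT5 (22 and 9) and 0 against PLT7 (231 and 180). For PLT4 it left 1 against PLT5 (28 and 46) and 1 against PLT7 (282 and 190). PLT5 against PLT7 kept 8 (420 and 246). Median centring, quantile normalisation, leaving out dim probe sets, probe sets with distinct values and the common adjustment kept each count within 1.5 times of that reported. The fit without dim probe sets also left out the 10 dim aquaporins, so its counts over 17 members are set against counts over 27. No fit of the compared groups alone exists for the mean of the lines, the common adjustment covers only the 5 lines against mock, and the F test has no fold minimum. The cause of these moves was not tested. Apart from the 2-fold minimum and the fit without the library labelled PLT1 replicate 3, calls over all probe sets are not given.

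The replicate numbers showed no clear pairing of the libraries. Over 40 pairs of libraries with the same number in different groups, deviations from the group means correlated between -0.16 and 0.24 (mean 0.000873). Over 94 pairs with different numbers they correlated between -0.18 and 0.18 (mean -0.000222). Of 18 libraries, 8 correlated best with their own number, and the count to expect without pairing was not computed. With the replicate number as a block, PLT3 against PLT5 had 0 called aquaporins, and the PLT4 calls of TIP2;1, TIP3;1, SIP1;2 and SIP2;1 were lost (adjusted p = 0.0679, 0.0594, 0.113 and 0.0578), as were those of TIP1;1 in PLT5 (0.0523), TIP2;2 in PLT3 (0.0843) and TIP3;1 in the mean of the 5 lines (0.283). The number of arrays, 2 to 4 per group, limits the precision throughout, and dim probe sets most.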
